A study of Homo sapiens with 6 samples.

Results

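The genes described here are 45 genes of the G1/S transition and DNA replication, taken by symbol from a table of 58051 genes, and all 45 symbols were found. They were measured by RNA sequencing in MDA-MB-231, a breast cancer cell line of mesenchymal-like form, with a wild-type (WT) genotype in the labels. All cells had been exposed to recombinant human FABP4, a carrier of fatty acids, carrying the fluorescent dye FITC, and were parted by flow cytometry. The FABP4 binding and the FABP4 non-binding subpopulation have 3 libraries each, made with random primers from total RNA after removal of ribosomal RNA. Both come from 1 line, and the labels do not say whether the libraries of a group are separate cultures or sorts. The p-values therefore refer to the spread among these 6 libraries, part or all of which may be technical.

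In G1, D-type cyclins with CDK4 and CDK6, and then E-type cyclins with CDK2, phosphorylate the retinoblastoma protein RB1, which frees E2F transcription factors. E2F proteins turn on genes for replication, among them the origin recognition complex, CDC6 and CDT1, which load rings of MCM2 to MCM7 onto DNA. In S phase CDC45 and the GINS complex turn each ring into a helicase, a primase starts the new strands, and polymerases held by the PCNA clamp extend them while enzymes of nucleotide metabolism supply the building blocks. The transcripts of many of these genes rise and fall with the cell cycle.

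RefSeq promoter windows of GRCh38.p14, 250 bases before to 50 bases after a gene's start, were found for 39 of the 45 genes. CCND1, CCNE2, CDK2, MCM4, MCM5 and RPA2 were not matched. The E2F motif was searched on both strands as the words TTTCCCGC, TTTCGCGC, TTTGCCGC and TTTGGCGC. A window with 1 or more of these words was present for 19 of the 39 genes (48.7%), against 6.62% of 9818 tested genes with a promoter window and 3.99% of all 27305 genes in the promoter table. By call in the comparison below, it was present for 6 of 11 genes that were higher, 1 of 2 that were lower and 12 of 26 that did not pass. The sequence CCAAT, which the factor NF-Y binds, was present on either strand for 23 of the 39 genes (59%), against 43.1% of the tested genes and 39.7% of all. These matches describe letters in the windows and were not tested for a role.

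The windows below are those of MCM6, which has the most matches, of the 3 genes with the largest rise (MCM10, GINS3 and TYMS) and of both genes that fell (POLA1 and PRIM1). Each runs 5′ to 3′ on the gene's strand, and capitals mark E2F words on either strand. In MCM6 the 4 matches lie at 2 places, since TTTGGCGC overlaps TTTCGCGC on the other strand. MCM10 and PRIM1 hold none of the 4 words in this window.
MCM6 (chr2:135876394-135876693, minus strand): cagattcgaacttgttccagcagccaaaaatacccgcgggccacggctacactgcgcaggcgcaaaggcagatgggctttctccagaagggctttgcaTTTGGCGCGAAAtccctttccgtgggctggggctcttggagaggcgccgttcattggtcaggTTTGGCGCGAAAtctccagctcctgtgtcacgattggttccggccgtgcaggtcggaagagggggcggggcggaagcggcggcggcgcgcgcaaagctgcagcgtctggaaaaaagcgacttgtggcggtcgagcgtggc
MCM10 (chr10:13161308-13161607, plus strand): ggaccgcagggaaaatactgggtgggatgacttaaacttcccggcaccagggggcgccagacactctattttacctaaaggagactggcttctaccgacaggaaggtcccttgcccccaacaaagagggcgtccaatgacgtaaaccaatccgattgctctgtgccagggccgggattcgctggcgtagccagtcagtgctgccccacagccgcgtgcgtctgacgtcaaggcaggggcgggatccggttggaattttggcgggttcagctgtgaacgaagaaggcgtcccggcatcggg
GINS3 (chr16:58392221-58392520, plus strand): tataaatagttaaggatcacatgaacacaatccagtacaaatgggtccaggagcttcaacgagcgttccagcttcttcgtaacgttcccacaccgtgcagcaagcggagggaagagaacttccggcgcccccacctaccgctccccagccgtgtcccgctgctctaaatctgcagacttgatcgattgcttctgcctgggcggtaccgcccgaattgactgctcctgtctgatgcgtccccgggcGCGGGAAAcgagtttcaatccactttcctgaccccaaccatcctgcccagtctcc
TYMS (chr18:657403-657702, plus strand): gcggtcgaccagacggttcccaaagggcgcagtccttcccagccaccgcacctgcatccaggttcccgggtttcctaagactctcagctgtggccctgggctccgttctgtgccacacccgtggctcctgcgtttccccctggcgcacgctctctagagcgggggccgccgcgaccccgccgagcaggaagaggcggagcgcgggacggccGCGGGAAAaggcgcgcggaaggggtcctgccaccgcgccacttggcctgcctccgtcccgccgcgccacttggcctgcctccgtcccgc
POLA1 (chrX:24693668-24693967, plus strand): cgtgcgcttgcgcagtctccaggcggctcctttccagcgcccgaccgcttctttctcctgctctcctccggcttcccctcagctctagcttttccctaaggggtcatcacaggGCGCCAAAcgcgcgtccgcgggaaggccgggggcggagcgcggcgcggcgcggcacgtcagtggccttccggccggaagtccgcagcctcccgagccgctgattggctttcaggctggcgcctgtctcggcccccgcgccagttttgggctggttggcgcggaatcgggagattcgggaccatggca
PRIM1 (chr12:56752274-56752573, minus strand): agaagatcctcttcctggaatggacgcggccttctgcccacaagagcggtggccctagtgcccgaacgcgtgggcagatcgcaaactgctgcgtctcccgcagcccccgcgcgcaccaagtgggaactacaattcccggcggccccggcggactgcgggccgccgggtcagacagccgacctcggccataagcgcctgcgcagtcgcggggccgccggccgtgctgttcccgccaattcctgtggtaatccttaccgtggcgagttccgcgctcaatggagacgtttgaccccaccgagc

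Values are TPM, which correct for transcript length and sum to 1000000 in every library, so the depth behind a value is unknown. Between 15300 and 15945 genes per library reached 1 TPM. Transcripts of the mitochondrial genome took 9.99% to 11.2% of TPM in binding libraries and 2.98% to 3.38% in non-binding libraries. Marker genes of 2 cell types moved with the groups. The summed TPM of 15 epidermal keratinocyte markers was 1826 to 3391 in binding and 4087 to 5744 in non-binding libraries, with 9 lower, 6 not past the test and none at 0. KRT10, the most abundant, averaged 553 ± 123 TPM in the binding and 1189 ± 194 TPM in the non-binding libraries (mean ± SD, n = 3 each). The summed TPM of 10 genes typical of MDA-MB-231 was 4509.7 to 5566 in binding and 2773 to 2947 in non-binding libraries, with 8 higher and none lower. LGALS1, the most abundant, averaged 2675 ± 356 TPM in the binding and 1373 ± 81.5 TPM in the non-binding libraries. Leukocyte markers had CD3D, MS4A1 and NKG7 listed at 0 in every library, and LAPTM5, the most abundant of 12, averaged 174 ± 25.2 TPM in the binding and 99.99 ± 20.2 TPM in the non-binding libraries. The leukocyte list summed to 188 to 224 TPM in the binding and 111 to 155 TPM in the non-binding libraries, with 1 of 5 tested higher. That gene was LAPTM5, which made up most of the sum in every library. For the other 11 genes the groups overlapped. The other 4 tested did not pass, with log2 changes of -0.52 for PTPRC, 0.39 for CD14, 0.02 for LYZ and 0.57 for CD68. For 8 fibroblast genes, COL1A1 the highest, the sum was 27.9 to 64.3 TPM in the binding and 34.7 to 61.5 TPM in the non-binding libraries. For 7 endothelial genes, CLDN5 the highest, it was 4.61 to 6.76 TPM in the binding and 5.43 to 7.51 TPM in the non-binding libraries, and for 7 adipocyte genes, LPL the highest and ADIPOQ and LEP at 0, it was 15.3 to 19.5 TPM in the binding and 10.1 to 26.7 TPM in the non-binding libraries. The part of these differences in the results that follow was not tested, and in bulk libraries fewer cells of a type and less RNA per cell cannot be told apart.

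The comparison asked which of these genes differ between cells that bind FABP4 and cells that do not. All 45 were at 1 TPM or more in every library and all were tested with limma on log2(TPM + 1), with Benjamini-Hochberg adjustment over all 15574 tested genes and a threshold of 0.05. In the binding cells 12 were higher, 2 were lower and 31 did not pass. That is 26.7% higher, where 19.6% of all tested genes were, and 4.44% lower, where 7.12% of all tested genes were. The shares lie close to those of all genes, so the count of calls says little about this group as such. The higher genes were CCND1, CCND3, CDC6, CDT1, MCM7, MCM10, GINS3, RRM2, TYMS, TK1, UHRF1 and CHAF1A, and the lower ones POLA1 and PRIM1. Whether genes that passed differ from those that did not was not tested, and ratios of genes within a library are given below as descriptions.

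The median log2 change over the 45 genes was 0.51, and 0.36 over all tested genes. With a filter of 5 TPM the medians were 0.51 over 43 of the genes and 0.41 over all 10451 then tested. A positive change was seen in 39 of the 45 (86.7%), against 68.1% of all tested genes. The middle 50% of changes lay between 0.26 and 0.70 for the 45 genes and between -0.18 and 0.68 for all. Every binding library exceeded every non-binding library for 25 of the 45 genes (55.6%), where 38.6% of all tested genes did so, and every binding library lay below every non-binding library for 3, CCNE1, POLA1 and PRIM1, where 13.6% of all did so. The upper quartiles thus lie close together and the lower quartiles apart, with few negative changes among the 45 genes.

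**Figure D1:**
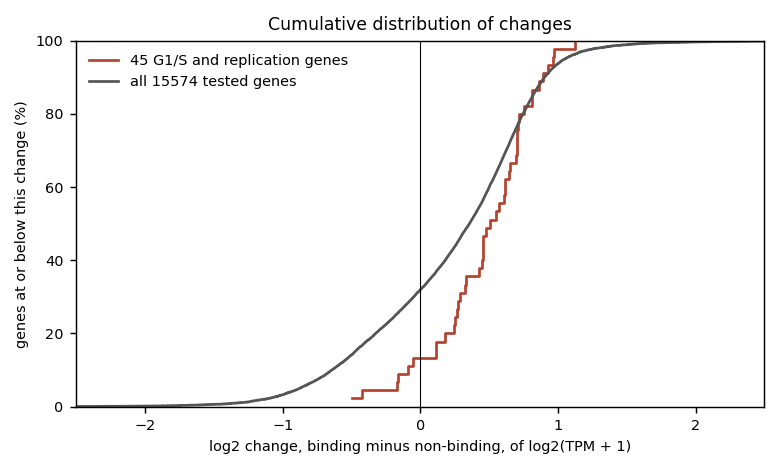
The horizontal axis is the log2 change of log2(TPM + 1), binding minus non-binding, and the vertical axis the percentage of genes at or below it, for the 45 G1/S and replication genes and for all 15574 tested genes. The medians are 0.51 and 0.36 and the upper quartiles 0.70 and 0.68, while the lower quartiles, 0.26 and -0.18, lie farther apart.

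Libraries of 1 group differed among themselves. Binding replicate 1 was the highest of all 6 libraries for 33 of the 45 genes, and non-binding replicate 2 the lowest for 30. The same counts over all tested genes were not made. Summed TPM was also highest and lowest in these libraries for the 71 other genes described below (3597 and 2753). So it was for the 36 genes of G2 and mitosis (2277 and 962), but not for histone genes, whose sum was lowest in binding replicate 1 (344). The summed TPM of the 45 genes was 2539, 1822 and 1863 in binding replicates 1, 2 and 3, against 1574, 1295 and 1554 in non-binding replicates 1, 2 and 3. The 2 groups of sums did not overlap. No gene of the 45 passed once non-binding replicate 2 or non-binding replicate 3 was left out (limma). Without non-binding replicate 2, 280 of all tested genes were higher (1.8%) and 80 lower, and without non-binding replicate 3, 58 were higher (0.372%) and 6 lower, so few calls remained over all genes too. At an unadjusted p under 0.05, 16 of the 45 were higher without non-binding replicate 2 (35.6%, against 25.7% of all tested genes) and 18 without non-binding replicate 3 (40%, against 27% of all), with 2 lower in each. Without binding replicates 1, 2 and 3 in turn, 9, 7 and 6 were higher and 1, 0 and 0 lower, and without non-binding replicate 1, 5 were higher and none lower. In that order, 20%, 15.6%, 13.3% and 11.1% of the 45 were higher, against 12.7%, 12.6%, 9.98% and 9.16% of all tested genes. Of all tested genes 5.7%, 4.94%, 4.1% and 3.28% were lower. With binding replicate 1 and non-binding replicate 2 both left out, an alternative chosen after the values were seen, 9 were higher and 1 lower, and all 10 were among the calls above. The 9 are 20% of the 45, where 12% of all tested genes were higher and 6.44% lower.

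**Figure D2:**
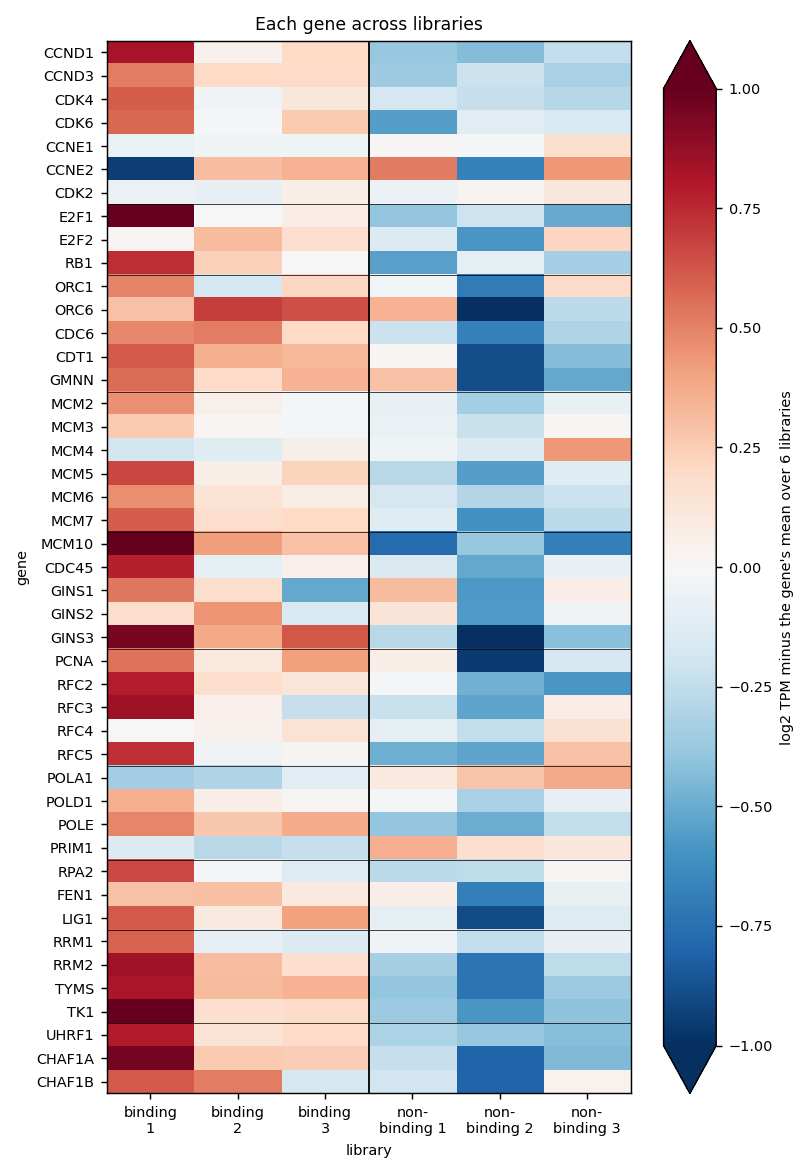
Each row is a gene and each column a library, with binding libraries on the left. Colour gives log2 TPM minus the gene's mean over the 6 libraries, and rules part the roles of the genes. Binding replicate 1 is the reddest column, being highest for 33 of the 45 genes, and non-binding replicate 2 the bluest, being lowest for 30, while POLA1 and PRIM1 run the other way. The same counts over all tested genes were not made.

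The calls also depended on scaling. With libraries shifted to share their median log2 value, under which the median change of all genes is 0.04, 2 genes were higher (MCM10 and TYMS) and 2 lower (POLA1 and PRIM1), 4.44% each, where 6.18% of all tested genes were higher and 12.1% lower. With quantile normalization 5 were higher (MCM7, MCM10, RRM2, TYMS and TK1; 11.1%, against 7.69% of all) and the same 2 lower. With mitochondrial genome transcripts left out and TPM rescaled, 20 were higher (44.4%, against 28.4% of all tested genes) and none lower (2 at an unadjusted p under 0.05; 813 of all genes passed as lower), so the calls of POLA1 and PRIM1 did not hold there. The 14 called genes kept their sign in each of the 15 alternatives that tested them; GINS3 fell below a filter of 5 TPM.

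Among the cyclins and kinases of G1, CCND1 and CCND3, both D-type cyclins, were higher in binding cells, and CDK4, CDK6, CDK2 and the E-type cyclins CCNE1 and CCNE2 did not pass. CCND1, cyclin D1 (ENSG00000110092, chromosome 11, 69641087 to 69654474, hg38), had 224, 131 and 145 TPM in binding libraries, against 97.3, 93.7 and 107 TPM in non-binding libraries. The groups did not overlap, and binding replicate 1 stood far above the others. Its log2 change was 0.70 (SE 0.20; limma, Benjamini-Hochberg adjusted p = 0.0395). CCND3, cyclin D3, had 28.8, 23.2 and 23.1 TPM in the binding and 15.7, 17.4 and 16.1 TPM in the non-binding libraries, again without overlap, a log2 change of 0.57 (SE 0.16; limma adjusted p = 0.0366). In GENCODE 10.3% of the exon bases of CCND1 lie opposite those of LTO1, which averaged 5.27 TPM in the binding and 3.59 TPM in the non-binding libraries. Without non-binding replicates 2 and 3 in turn, the adjusted p by limma was 0.108 and 0.0855 for CCND1 and 0.0793 and 0.102 for CCND3. CCND1 also lost its call without non-binding replicate 1 and binding replicate 3 (limma adjusted p = 0.0879 and 0.0602), and CCND3 without non-binding replicate 1 and binding replicates 2 and 3 (limma adjusted p = 0.0913, 0.0640 and 0.0677).

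Their partner kinases did not pass, although neither had overlapping groups. CDK4 had 191, 122 and 135 TPM in the binding and 111, 107 and 103 TPM in the non-binding libraries, a log2 change of 0.45 (95% interval 0.05 to 0.86; limma adjusted p = 0.0851). In GENCODE 43.2% of the exon bases of CDK4 lie opposite those of TSPAN31, which averaged 10.7 TPM in the binding and 5.75 TPM in the non-binding libraries, and reads of the pair cannot be told apart where strand was not used in counting. CDK6 had a log2 change of 0.51 (95% interval 0.02 to 0.99; limma adjusted p = 0.103). CDK2, the partner of cyclins E and A, averaged 48.9 ± 2.84 TPM in the binding and 50.6 ± 3.06 TPM in the non-binding libraries (mean ± SD, n = 3 each), with a log2 change of -0.05 (95% interval -0.35 to 0.25).

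CCNE1, cyclin E1, had 6.23, 6.31 and 6.32 TPM in the binding and 6.58, 6.44 and 7.27 TPM in the non-binding libraries, so that the binding libraries lay just below the others. Its log2 change was -0.09 (95% interval -0.51 to 0.33; limma adjusted p = 0.719), or -0.45 relative to the median of all genes. CCNE2, cyclin E2, scattered within both groups, with 5.42, 12.9 and 13.2 TPM in the binding and 14.9, 6.49 and 14.1 TPM in the non-binding libraries. The low values were those of binding replicate 1 and non-binding replicate 2, and the interval of its change was wide (-1.08 to 0.74). In GENCODE 37.0% of its exon bases lie opposite INTS8, which averaged 13.7 TPM in both groups. The ratio of CCND1 to CCNE1 within a library was 36.0, 20.7 and 23.0 in binding and 14.8, 14.6 and 14.7 in non-binding libraries, without overlap. That lack of overlap follows from the single genes, since CCND1 lay above and CCNE1 below in every binding library.

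**Figure D3:**
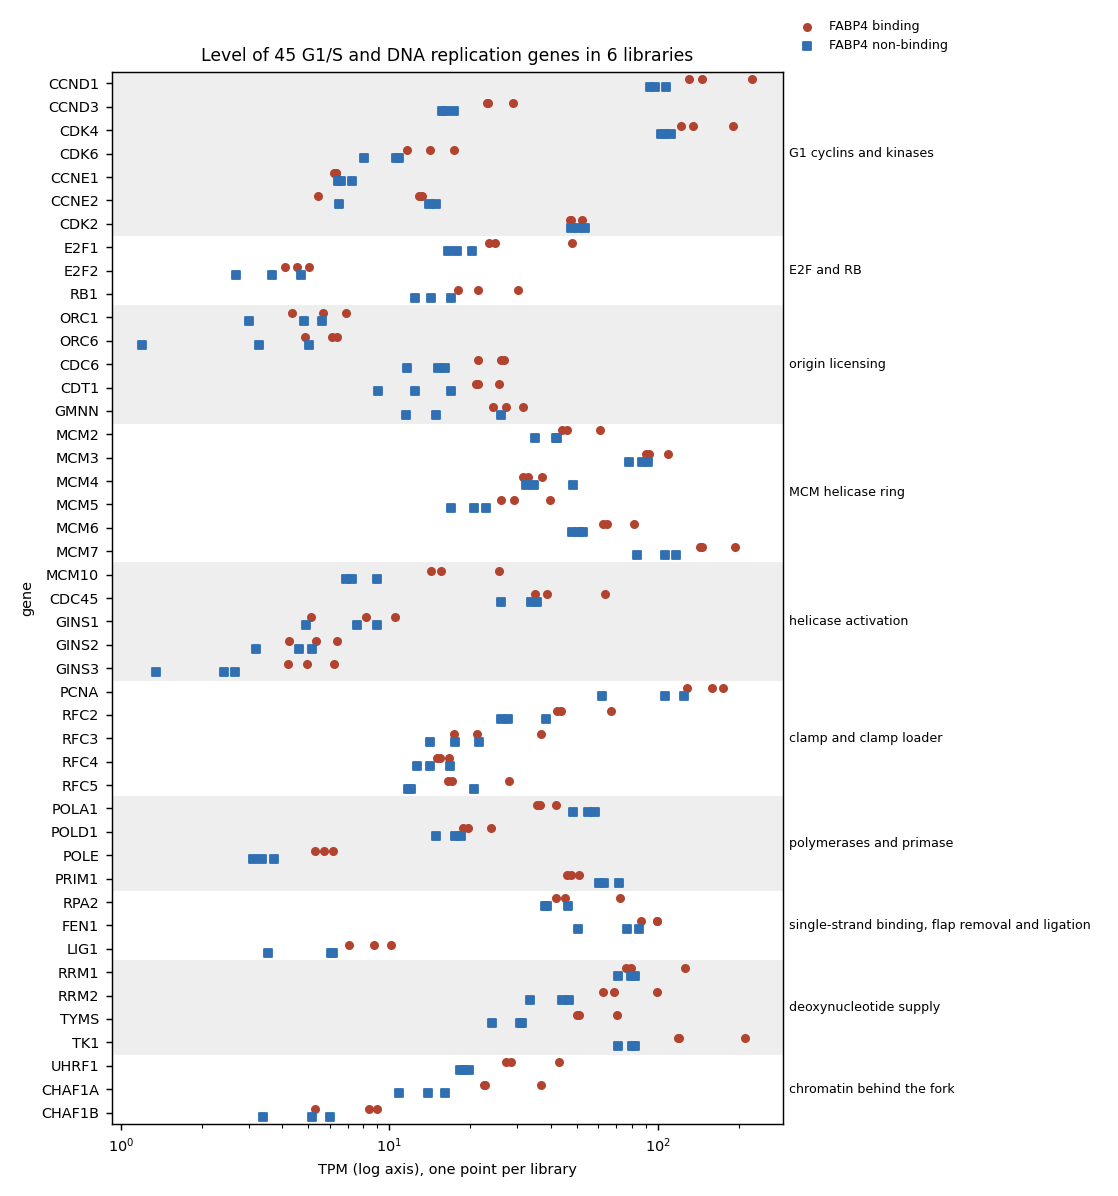
Each row is a gene, ordered by role, and each point a library, with TPM on a log axis; circles are the 3 FABP4 binding and squares the 3 FABP4 non-binding libraries. Circles lie to the right of all squares in 25 of the 45 rows and to the left of all squares in CCNE1, POLA1 and PRIM1.

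None of the 3 genes of the E2F and RB switch passed. E2F1, an activator of S phase genes, had 48.0, 23.6 and 24.8 TPM in the binding and 17.9, 20.4 and 16.6 TPM in the non-binding libraries. The groups did not overlap, but binding replicate 1 stood far above the other binding libraries, and the change of 0.71 had an interval of 0.09 to 1.33 (limma adjusted p = 0.0796). RB1, which restrains E2F1, had 30.2, 21.3 and 18.1 TPM in the binding and 12.4, 16.9 and 14.3 TPM in the non-binding libraries, also without overlap (log2 change 0.62, limma adjusted p = 0.0698). The ratio of E2F1 to RB1 within a library was 1.59, 1.10 and 1.37 in binding and 1.44, 1.20 and 1.16 in non-binding libraries, and these ranges overlapped. E2F2, a second activator, averaged 4.55 ± 0.465 TPM in the binding and 3.68 ± 1.000 TPM in the non-binding libraries (mean ± SD, n = 3 each).

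Both loaders of the MCM ring were higher in binding cells. CDC6, the ATPase that works with the origin recognition complex (ENSG00000094804, chromosome 17, 40287633 to 40304657, hg38), had 26.0, 26.6 and 21.3 TPM in the binding and 16.1, 11.6 and 15.2 TPM in the non-binding libraries. The log2 change was 0.75 (SE 0.18; limma adjusted p = 0.0268), and the groups were well apart. CDT1, which brings the ring to the origin, had 25.6, 21.4 and 21.0 TPM in the binding and 17.01, 9.07 and 12.4 TPM in the non-binding libraries (log2 change 0.81, SE 0.23; limma adjusted p = 0.0385). GMNN, geminin, the inhibitor of CDT1, had 31.5, 24.3 and 27.2 TPM in the binding and 26.1, 11.5 and 15.0 TPM in the non-binding libraries. Non-binding replicate 1 fell inside the binding range, and GMNN did not pass (log2 change 0.70, limma adjusted p = 0.0917). The ratio of CDT1 to GMNN was 0.813, 0.882 and 0.774 in binding and 0.651, 0.787 and 0.831 in non-binding libraries and overlapped. Subunits of the origin recognition complex did not pass either: the log2 change was 0.29 for ORC1 (95% interval -0.34 to 0.92) and 0.81 for ORC6 (-0.04 to 1.66). Without non-binding replicates 2 and 3 in turn, the limma adjusted p was 0.0782 and 0.0699 for CDC6 and 0.10025 and 0.0968 for CDT1. CDC6 also lost its call without binding replicate 2 (limma adjusted p = 0.0658), and CDT1 without each of binding replicates 1, 2 and 3 (limma adjusted p = 0.0917, 0.0690 and 0.0696).

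The 6 subunits of the MCM ring, the helicase that unwinds the origin, had log2 changes between -0.16 and 0.65, and 1 of them passed. MCM7 (ENSG00000166508, chromosome 7, 100092728 to 100101940, hg38) had 193, 143 and 146 TPM in the binding and 117, 83.5 and 106 TPM in the non-binding libraries and was higher (log2 change 0.65, SE 0.18; limma adjusted p = 0.0345). MCM5 and MCM6 did not pass, although their groups were apart (log2 change 0.61 and 0.44, limma adjusted p = 0.0555 and 0.0566). MCM2 and MCM3 had log2 changes of 0.32 (95% interval -0.07 to 0.72) and 0.18 (-0.14 to 0.50). The groups overlapped for MCM3 and narrowly did not for MCM2, whose lowest binding library had 43.9 TPM and highest non-binding library 42.0 TPM. MCM4 had 31.4, 32.8 and 37.2 TPM in the binding and 34.7, 32.4 and 48.3 TPM in the non-binding libraries, a log2 change of -0.16 (-0.59 to 0.26). Within a library, the ratio of MCM7 to MCM4 was 6.14, 4.37 and 3.92 in binding and 3.36, 2.58 and 2.20 in non-binding libraries, and that of MCM6 to MCM4 was 2.59, 1.97 and 1.68 in binding and 1.52, 1.48 and 1.05 in non-binding libraries. The groups overlapped in neither ratio. They did overlap in the ratio of MCM2 to MCM4, which was 1.93, 1.39 and 1.18 in binding and 1.21, 1.077 and 0.870 in non-binding libraries. The call of MCM7 was lost without any 1 of the 6 libraries; its limma adjusted p was then 0.0596, 0.0514 and 0.0571 without binding replicates 1, 2 and 3, and 0.0521, 0.09998 and 0.0839 without non-binding replicates 1, 2 and 3.

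Of the factors that turn the loaded ring into a moving helicase, MCM10 and GINS3 were higher. MCM10, which binds the ring and the polymerase (ENSG00000065328, chromosome 10, 13161554 to 13211104, hg38), had 25.6, 15.6 and 14.3 TPM in the binding and 6.89, 9.03 and 7.28 TPM in the non-binding libraries. That was 2.39 times as high on average in binding cells and the largest log2 change of the 45 genes, 1.12 (SE 0.25; limma adjusted p = 0.0210), with no overlap. It also passed with the common median (log2 change 0.80, limma adjusted p = 0.0385) and quantile normalization (0.80, limma adjusted p = 0.0433). GINS3, a subunit of the GINS complex, was lowly expressed at 6.22, 4.201 and 4.96 TPM in the binding and 2.66, 1.35 and 2.42 TPM in the non-binding libraries (log2 change 0.97, SE 0.28; limma adjusted p = 0.0371). Its partners GINS1 and GINS2 had log2 changes of 0.11 (95% interval -0.58 to 0.81) and 0.26 (-0.32 to 0.83), and CDC45 one of 0.48 (-0.08 to 1.04), none past the threshold. The ratio of MCM10 to CDC45 was 0.401, 0.447 and 0.372 in binding and 0.204, 0.346 and 0.206 in non-binding libraries, without overlap. MCM10 lost its call without non-binding replicates 1, 2 and 3 in turn (limma adjusted p = 0.0532, 0.0586 and 0.0659). GINS3 lost it without any 1 of the 6 libraries (limma adjusted p from 0.0563 to 0.0976).

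PCNA, the sliding clamp, had 174, 129 and 159 TPM in the binding and 125, 61.7 and 106 TPM in the non-binding libraries. Binding libraries were above all others, but the non-binding values were spread widely and PCNA did not pass (log2 change 0.70, 95% interval 0.11 to 1.29; limma adjusted p = 0.0727). The subunits of the clamp loader did not pass: the log2 change was 0.70 for RFC2 (limma adjusted p = 0.0526), 0.43 for RFC3, 0.12 for RFC4 and 0.45 for RFC5. RFC2 alone of these 4 had groups that did not overlap, with 66.7, 43.7 and 42.1 TPM in the binding and 38.3, 27.7 and 26.0 TPM in the non-binding libraries.

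Of the polymerases and the primase, POLA1 and PRIM1 were lower in binding cells, and POLE and POLD1 did not pass. POLA1, the catalytic subunit of polymerase alpha that extends the primer (ENSG00000101868, chromosome X, 24693919 to 24996986, hg38), had 35.3, 36.5 and 41.8 TPM in binding libraries, against 48.2, 54.8 and 58.4 TPM in non-binding libraries. PRIM1, the primase subunit that makes the RNA primer in the same complex (ENSG00000198056, chromosome 12, 56731596 to 56752373), had 50.7, 46.0 and 47.4 TPM in the binding and 71.8, 62.8 and 60.5 TPM in the non-binding libraries. For both, every binding library lay below every non-binding library. The log2 change was -0.50 for POLA1 and -0.43 for PRIM1 (SE 0.15 and 0.13; limma adjusted p = 0.0409 and 0.0494). Relative to the median of all genes the changes were -0.85 and -0.78, and with the common median the adjusted p by limma was 0.0197 and 0.0160. POLE, the leading strand polymerase, had 6.18, 5.31 and 5.71 TPM in the binding and 3.37, 3.12 and 3.72 TPM in the non-binding libraries, without overlap, and missed the threshold (log2 change 0.61, limma adjusted p = 0.0588). POLD1, the catalytic subunit of the lagging strand polymerase, had a log2 change of 0.27 (95% interval -0.12 to 0.67).

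Within a library the ratio of POLE to POLA1 was 0.175, 0.146 and 0.137 in binding and 0.0699, 0.0569 and 0.0637 in non-binding libraries, and that of POLD1 to POLA1 was 0.677, 0.538 and 0.451 in binding and 0.382, 0.273 and 0.302 in non-binding libraries. Neither pair of groups overlapped. This follows from the single genes, since POLE and POLD1 lay above and POLA1 below in every binding library. The ratio of PRIM1 to POLA1 overlapped (1.44, 1.26 and 1.14 in binding and 1.49, 1.14 and 1.04 in non-binding libraries). POLA1 and PRIM1 were listed far above the other subunits of their own complex, POLA2 and PRIM2. POLA2, the accessory subunit, averaged 4.24 ± 1.19 TPM in the binding and 2.91 ± 0.295 TPM in the non-binding libraries, and PRIM2, the regulatory subunit of primase, 6.25 ± 0.954 TPM in the binding and 4.83 ± 0.420 TPM in the non-binding libraries (mean ± SD, n = 3 each). POLA2 and PRIM2 did not pass (log2 change 0.40 and 0.31, limma adjusted p = 0.249 and 0.274), and for both every binding library lay above every non-binding library. The call of POLA1 was lost without any 1 of the 6 libraries, with a limma adjusted p of 0.0574, 0.0938 and 0.0622 without binding replicates 1, 2 and 3 and 0.0637, 0.106 and 0.134 without non-binding replicates 1, 2 and 3. That of PRIM1 held without binding replicate 1 (limma adjusted p = 0.0386) and was lost without any 1 of the others (limma adjusted p = 0.117 and 0.113 without binding replicates 2 and 3, and 0.148, 0.103 and 0.101 without non-binding replicates 1, 2 and 3).

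**Figure D4:**
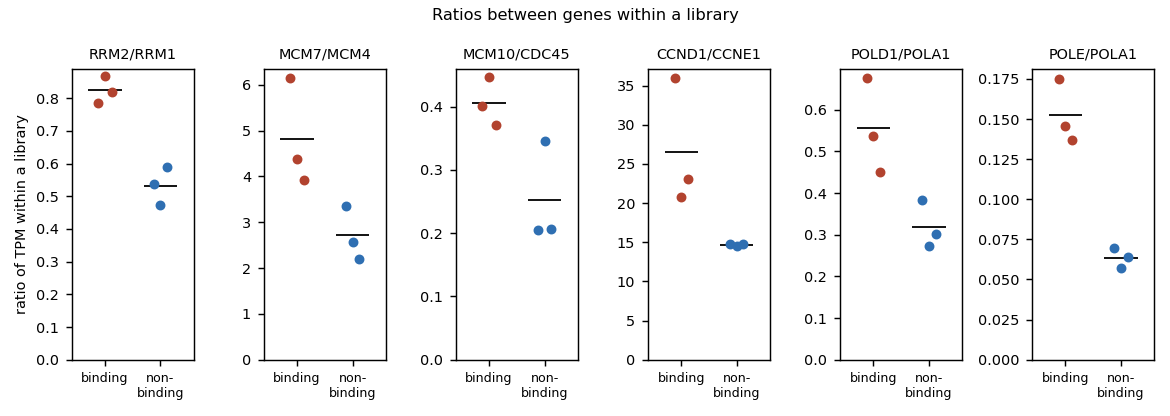
Each panel is a ratio of the TPM of 2 genes within a library, on a linear axis from 0, with binding libraries in red on the left and non-binding libraries in blue on the right; each point is a library and the line the mean. In all 6 panels the groups do not overlap. These 6 are among 9 such ratios of 21 computed, and were chosen after the values were seen. For CCND1/CCNE1, POLD1/POLA1 and POLE/POLA1 this follows from the single genes, whose groups are apart in opposite directions. These panels therefore add no separate result. How often other pairs of genes show no overlap was not computed.

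RPA2, which coats single-stranded DNA, FEN1, which removes flaps of Okazaki fragments, and LIG1, which seals them, did not pass. FEN1 had 98.9, 99.5 and 86.3 TPM in the binding and 84.8, 50.2 and 76.9 TPM in the non-binding libraries (log2 change 0.45, limma adjusted p = 0.121). The log2 change was 0.64 for LIG1 (limma adjusted p = 0.0881) and 0.33 for RPA2 (95% interval -0.18 to 0.84). The groups overlapped for RPA2 and not for FEN1 and LIG1.

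In deoxynucleotide supply 3 of the 4 genes were higher in binding cells, where 19.6% of all tested genes were. Whether a group of 4 genes differs from all genes was not tested. TYMS, thymidylate synthase, which makes dTMP (ENSG00000176890, chromosome 18, 657604 to 673578, hg38), had 70.7, 49.9 and 51.0 TPM in the binding and 30.7, 24.1 and 31.1 TPM in the non-binding libraries. Its log2 change was 0.96 (SE 0.19; limma adjusted p = 0.0168, the smallest of the 45 genes). TYMS also passed with the common median (0.65, limma adjusted p = 0.0263) and with quantile normalization (0.71, limma adjusted p = 0.0282). In GENCODE 39.1% of its exon bases lie opposite ENOSF1, which averaged 2.07 TPM in the binding and 2.26 TPM in the non-binding libraries. TK1, the thymidine kinase of the salvage route, had 212, 119 and 120.2 TPM in the binding and 82.4, 71.0 and 80.2 TPM in the non-binding libraries (log2 change 0.89, SE 0.23; limma adjusted p = 0.0292). RRM2, the small subunit of ribonucleotide reductase, which carries its radical, had 99.3, 68.9 and 62.5 TPM in the binding and 44.0, 33.5 and 46.7 TPM in the non-binding libraries (log2 change 0.86, SE 0.21; limma adjusted p = 0.0268). RRM1, the large subunit, had 126, 79.3 and 76.3 TPM in the binding and 82.1, 70.8 and 79.3 TPM in the non-binding libraries and did not pass (95% interval -0.23 to 0.71).

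The ratio of RRM2 to RRM1 within a library was 0.787, 0.869 and 0.819 in binding and 0.536, 0.473 and 0.589 in non-binding libraries, without overlap. The processed pseudogene RRM2P3 was listed at a mean of 7.91 TPM in the binding and 9.75 TPM in the non-binding libraries, and how reads shared with RRM2 were assigned is not given in the sources used here. Without non-binding replicates 2 and 3 in turn, the limma adjusted p was 0.0604 and 0.0564 for TYMS, 0.0884 and 0.0767 for TK1 and 0.0812 and 0.0631 for RRM2. Without non-binding replicate 1, TK1 and RRM2 were also lost (limma adjusted p = 0.0590 and 0.0548).

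Among the genes that rebuild chromatin behind the fork, UHRF1 and CHAF1A were higher. CHAF1A, the large subunit of chromatin assembly factor 1, which places histones H3 and H4 on new DNA (ENSG00000167670, chromosome 19, 4402662 to 4445018, hg38), had 36.7, 22.7 and 22.5 TPM in the binding and 16.2, 10.9 and 14.0 TPM in the non-binding libraries (log2 change 0.93, SE 0.24; limma adjusted p = 0.0301). UHRF1, which guides DNA methylation to new strands, had 42.8, 27.1 and 28.3 TPM in the binding and 19.9, 19.0 and 18.4 TPM in the non-binding libraries (log2 change 0.72, SE 0.20; limma adjusted p = 0.0354). CHAF1B, the middle subunit of the same factor, did not pass (log2 change 0.55, 95% interval -0.09 to 1.18). Without non-binding replicates 2 and 3 in turn, the limma adjusted p was 0.0902 and 0.0774 for CHAF1A and 0.0914 and 0.0979 for UHRF1. UHRF1 was also lost without non-binding replicate 1 and binding replicate 3 (limma adjusted p = 0.0710 and 0.0559).

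**Figure D5:**
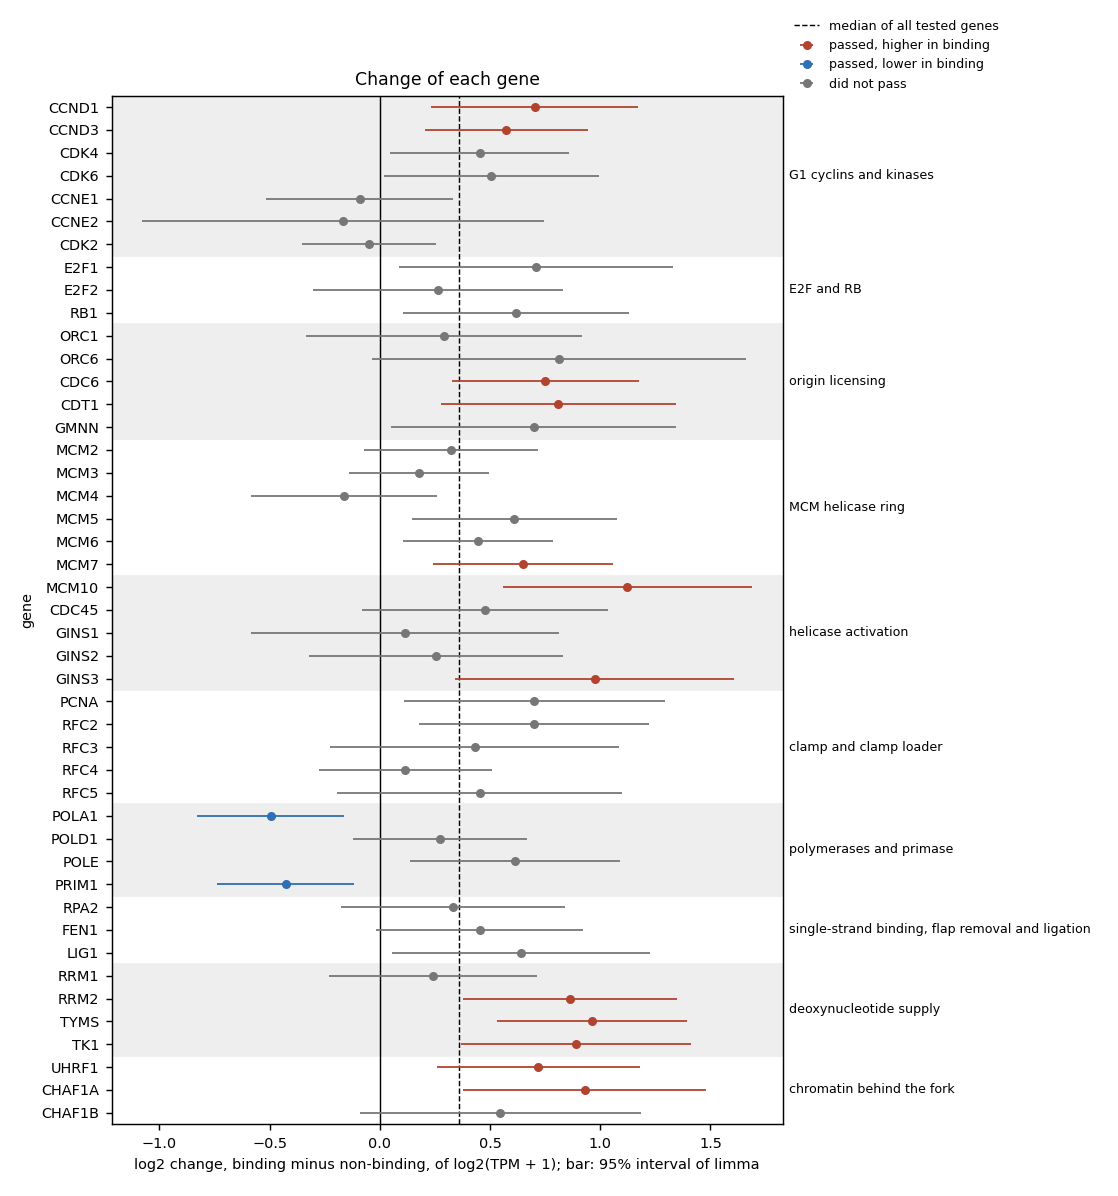
Points are log2 changes of log2(TPM + 1), binding minus non-binding, bars their 95% intervals by limma, and colour shows whether a gene passed an adjusted p of 0.05. The dashed line is the median of all tested genes, 0.36; the 12 higher genes lie right of it, and POLA1 and PRIM1 are the 2 genes that passed left of 0.

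Of 71 other genes of G1/S control and replication, 15 were higher and 4 lower in binding cells and 52 did not pass (limma). That is 21.1% higher, against 19.6% of all tested genes, and 5.63% lower, against 7.12% of all. These shares lie close to those of all genes, so the counts say little about the list as such. The median log2 change of the 71 was 0.56, against 0.36 over all tested genes. Among the genes that passed, the 5 largest rises were those of POLE4 (log2 change 1.19), POLD4 (0.90) and POLD2 (0.87), accessory subunits of polymerases epsilon and delta, of SAMHD1 (1.03), which breaks down deoxynucleotides, and of RPA1 (0.95), the large subunit of the single-strand binding complex. The limma adjusted p was 0.0268 for POLE4, 0.0255 for POLD4, 0.0203 for POLD2, 0.0416 for SAMHD1 and 0.0222 for RPA1. SAMHD1 lost its call without binding replicates 1 and 3 (limma adjusted p = 0.106 and 0.0776) and without non-binding replicates 1, 2 and 3 (0.103, 0.0609 and 0.104). The 4 lower genes included the histone chaperone genes RBBP4, a subunit of chromatin assembly factor 1, and ASF1A, which hands histones to that factor. RBBP4 had 43.8, 54.2 and 54.0 TPM in the binding and 86.5, 82.9 and 80.8 TPM in the non-binding libraries (log2 change -0.71, limma adjusted p = 0.0169), and ASF1A had 67.0, 70.8 and 77.7 TPM in the binding and 122, 107 and 113 TPM in the non-binding libraries (log2 change -0.66, limma adjusted p = 0.0168). CKS2, a small subunit of cyclin-dependent kinases, and CHTF8, of an alternative clamp loader, were lower, with log2 changes of -0.59 and -0.39 (limma adjusted p = 0.0384 and 0.0439). Of the 3 subunits of chromatin assembly factor 1, then, CHAF1A was higher, RBBP4 lower and CHAF1B not past the threshold. RBBP4 lost its call without non-binding replicates 2 and 3 (limma adjusted p = 0.0598 and 0.0594), and ASF1A without non-binding replicates 1, 2 and 3 (0.0507, 0.0559 and 0.0618). Leaving out non-binding replicate 3 left no call among the 71 (limma). At an unadjusted p under 0.05 by limma, 30 were then higher and 4 lower. Of all tested genes 27% were higher and 9.2% lower at that unadjusted p. Leaving out non-binding replicate 2 left 1 higher and 1 lower, where 1.8% of all tested genes were higher and 0.514% lower. Without binding replicates 1, 2 and 3 in turn, 4, 6 and 8 were higher and 4, 2 and 2 lower, and without non-binding replicate 1, 6 were higher and 1 lower. In these 4 settings 12.7%, 12.6%, 9.98% and 9.16% of all tested genes were higher and 5.7%, 4.94%, 4.1% and 3.28% lower. Under the common median the counts were 2 higher and 5 lower, where 6.18% of all tested genes were higher and 12.1% lower.

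Of the 7 inhibitors of cyclin-dependent kinases, 2 were higher (28.6%, against 19.6% of all tested genes) and none lower (7.12% of all). CDKN1B, p27, which binds cyclin E with CDK2, had 43.4, 39.2 and 36.8 TPM in the binding and 22.2, 27.1 and 18.2 TPM in the non-binding libraries (log2 change 0.81, limma adjusted p = 0.0215). CDKN2D, p19, which binds CDK4 and CDK6, had 46.9, 27.4 and 25.6 TPM in the binding and 18.6, 17.2 and 18.2 TPM in the non-binding libraries (log2 change 0.80, limma adjusted p = 0.0406). CDKN1A, p21, averaged 106 ± 6.77 TPM in the binding and 98.0 ± 13.3 TPM in the non-binding libraries (mean ± SD, n = 3 each), and CDKN1C and CDKN2C had log2 changes of 0.57 and 0.07. CDKN2A and CDKN2B were low, at means of 2.13 ± 0.339 and 1.03 ± 0.174 TPM in binding and 4.29 ± 2.60 and 1.87 ± 0.525 TPM in non-binding libraries. None of these 5 passed. CDKN1B lost its call without non-binding replicates 1 and 3 (limma adjusted p = 0.0526 and 0.0699), and CDKN2D without binding replicate 2 and without non-binding replicates 1, 2 and 3 (limma adjusted p = 0.0542, 0.0796, 0.105 and 0.0981).

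For orientation, 3 of 36 genes of G2 and mitosis were higher (8.33%, against 19.6% of all tested genes) and none lower (limma). Their median log2 change was 0.52. At an unadjusted p under 0.05 by limma, 13 of the 36 were higher and 0 lower. Of all tested genes 33% were higher and 11.7% lower at that unadjusted p. The count of higher genes among the 36 depended on the setting, as did the share of all tested genes. It was 13 with mitochondrial genome transcripts left out (36.1%, against 28.4% of all tested genes). With a filter of 5 TPM it was 8 (22.9%, against 32.7% of all). With quantile normalization it was 1 (2.78%, against 7.69% of all), and with the common median 0 (against 6.18% of all). MKI67, a general mark of dividing cells, averaged 35.5 ± 7.64 TPM in the binding and 20.5 ± 5.66 TPM in the non-binding libraries (mean ± SD, n = 3 each) and was higher (log2 change 0.78, limma adjusted p = 0.0439). MKI67 lost its call without any 1 of the 6 libraries (limma adjusted p from 0.0589 to 0.124), and the list then held between 0 and 2 calls. In these settings 0.372% to 12.7% of all tested genes were higher. TOP2A, CCNB1 and CDK1 had log2 changes of 0.04, 0.42 and 0.51 and did not pass. Replication-dependent histone genes, whose transcripts are made in S phase and carry no poly(A) tail, had a median log2 change of -0.04 over 22 tested of 37, with 2 higher and 1 lower. That is 9.09% and 4.55% of those tested, against 19.6% and 7.12% of all tested genes. The called histone genes were low, with group means from 0.471 to 7.44 TPM. The summed TPM of the 37 was 344 to 557 in binding and 527 to 677 in non-binding libraries, and these ranges overlapped. The most abundant were HIST1H2BO, with 83.2 ± 35.8 TPM in the binding and 153 ± 41.6 TPM in the non-binding libraries, and HIST1H2AL, with 77.9 ± 29.95 TPM in the binding and 99.4 ± 15.3 TPM in the non-binding libraries. Whether these lists differ from the 45 genes was not tested.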

How the data were processed

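Total RNA of sorted MDA-MB-231 cells was depleted of ribosomal RNA, fragmented and randomly primed, per the labels' protocols. The authors' deposited values are TPM, judged from the values, since each of 6 columns sums to 1000000. The genome was hg38, per the submitters' processing notes; for the aligner, counter, annotation and strand setting the entry is: not given in the sources used here. Depth cannot be read from TPM, so counting intervals and count models were left out.

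The 15574 genes that reached 1 TPM in 3 or more libraries were tested on log2(TPM + 1) with limma 3.58.1 in R 4.3.3 (intensity trend, no covariate, Benjamini-Hochberg at 0.05), FABP4 binding minus FABP4 non-binding. This scale understates changes of low genes. Intervals are 95%. Code was tested on simulated data. Alternatives changed the filter, pseudocount, scaling, trend, a replicate block and left out each library. GENCODE release 29 gave coordinates and exon overlaps (99% of identifiers matched) and may not be the authors' annotation. The genes and lists were chosen with earlier results of these data known. Named genes followed a written rule: all 45 genes, the largest called rises (up to 5) and falls (up to 5) and all CDK inhibitors of the wider list, and set genes of the other lists. POLA2, PRIM2, DUT and RRM2B of the wider list, and markers other than the most abundant of each list, were named outside this rule. The pairs for ratios within a library were chosen after values were seen. No batch or date is in the labels.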

Additional observations from a re-analysis of the deposited data

How the results depend on the processing

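No called gene changed sign in any of the 15 alternatives that tested it, and 13 of the other 31 changed sign in at least 1. Higher and lower genes of the 45 (12 and 2) numbered 3 and 0 without a filter, 12 and 1 with a pseudocount of 0.1, 2 and 2 with the common median, 5 and 2 after quantile normalization, 20 and 0 without mitochondrial transcripts, 5 and 0 without the trend, and 9 and 1 with 2 libraries against 2. For the 71 other genes (15 and 4) the counts were 3 and 2, 15 and 4, 2 and 5, 2 and 2, 29 and 2, 6 and 2, and 6 and 6 in that order. For all genes (3047 and 1109) they were 1373 and 500 without a filter, 2937 and 1040 with a pseudocount of 0.1 and 962 and 1890 with the common median. They were 1197 and 1246 after quantile normalization, 4477 and 813 without mitochondrial transcripts, 1992 and 567 without the trend and 1874 and 1003 with 2 against 2. In that order, 6.67%, 26.7%, 4.44%, 11.1%, 44.4%, 11.1% and 20% of the 45 were higher. Of all tested genes, 5.12% (of 26817), 18.9%, 6.18%, 7.69%, 28.4%, 12.8% and 12% were higher. The shares of all tested genes that were lower were 1.86%, 6.68%, 12.1%, 8%, 5.16%, 3.64% and 6.44%. Leaving out 1 library gave 0 to 9 higher and 0 to 1 lower of the 45, 0 to 8 higher and 0 to 4 lower of the 71, and 58 to 1975 higher and 6 to 888 lower of all. With a filter of 5 TPM, 15 of 43 tested of the 45 were higher (34.9%, against 32.7% of all tested genes) and 2 lower. The counts were then 21 and 4 for 62 tested of the 71, and 3422 and 1224 for all. The median change of the 45 was 0.19 with the common median and lay between 0.39 and 0.62 with 1 library left out.

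Signs turned with the common median for E2F2 (-0.054), ORC1 (-0.028), MCM3 (-0.14), GINS1 (-0.20), GINS2 (-0.063), RFC4 (-0.20), POLD1 (-0.045) and RRM1 (-0.077), and after quantile normalization for GINS1 (-0.20), GINS2 (-0.014), RFC4 (-0.22) and POLD1 (-0.049). Without mitochondrial transcripts CCNE1 was at 0.0080 and CDK2 at 0.061, and with 2 against 2 ORC1 at -0.055, GINS1 at -0.31, RFC3 at -0.016 and RRM1 at -0.052. With 1 library left out CCNE2 ranged from -0.52 to 0.21, MCM4 from -0.27 to 0.0082 and GINS1 from -0.11 to 0.37. The cause of these shifts was not tested. Deviations from the group mean were little correlated between libraries with the same replicate number (0.035, -0.017 and 0.028 for numbers 1, 2 and 3). With 3 libraries per group these values cannot settle whether the numbers pair the samples, and the labels do not say. With the replicate block 15 of the 45 were higher and 1 lower, and 19 and 2 of the 71. The counts were 12 and 0 for the 36 genes of G2 and mitosis (3 and 0 without the block) and 3174 and 1132 for all. Of the 45 and of the 36, 33.3% each were higher, against 20.4% of all tested genes. Depth is unknown, so what it limits could not be set.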

Other observations

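Among the 6 genes of nucleotide supply in the wider list, 3 were higher in binding cells with limma and Benjamini-Hochberg adjustment, where 19.6% of all tested genes were. Whether so small a group differs from all genes was not tested. DUT, which breaks down dUTP, had 72.7, 42.3 and 42.1 TPM in the binding and 33.7, 23.8 and 28.1 TPM in the non-binding libraries (log2 change 0.82, limma adjusted p = 0.0412). RRM2B, a small reductase subunit that works outside S phase as well, had 28.4, 19.4 and 18.9 TPM in the binding and 14.3, 12.1 and 13.7 TPM in the non-binding libraries (log2 change 0.67, limma adjusted p = 0.0416). SAMHD1 was the other, and its call was lost without any 1 of 5 of the 6 libraries (limma adjusted p from 0.0609 to 0.106). DUT and RRM2B lost their calls without any 1 of the 6 libraries (limma adjusted p from 0.0514 to 0.120 and from 0.0587 to 0.113). DUT and RRM2B were singled out after their values were seen.

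In the initiation complexes, levels per length of partner subunits differed widely. The ratio of POLA1 to POLA2 within a library was 6.37, 9.23 and 13.0 in binding and 15.7, 21.4 and 18.9 in non-binding libraries. The ratio of PRIM1 to PRIM2 was 6.91, 7.83 and 8.55 in binding and 14.0, 12.6 and 13.9 in non-binding libraries. Neither pair of groups overlapped. This restates the single genes given above, since POLA1 and PRIM1 lay below and POLA2 and PRIM2 above in every binding library. The reason for these levels was not tested.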
